A study of Mus musculus with 16 samples.

Results

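Matrix metalloproteinases (MMPs) and the tissue inhibitors of metalloproteinases (TIMPs) were followed in bulk RNA-sequencing libraries of mouse dorsal root ganglia (DRGs), which hold the cell bodies of the sensory neurons. The 10 genes are Mmp2, the membrane-type enzymes Mmp14, Mmp15, Mmp16, Mmp17 and Mmp24, and the inhibitors Timp1, Timp2, Timp3 and Timp4. They were taken by their Ensembl identifiers from the 52636 genes counted, and all 10 were among the 21371 genes with enough reads to be tested. Each library came from the L3 to L6 DRGs of 1 male C57Bl6/J mouse aged 3 to 4 months, and each of the 4 groups held 4 mice. Sham-Saline mice had sham surgery and saline, SNI-Saline mice had tibial spared nerve injury (SNI) and saline, Sham-DMI mice had sham surgery and desipramine (DMI), and SNI-DMI mice had SNI and DMI. DMI, a tricyclic antidepressant, was given intraperitoneally over 3 weeks, in 2 daily injections of 15 mg/kg, and saline followed the same schedule. Treatment began 4 weeks after surgery by the deposited design, whereas the methods give 4 months. In this surgery the common peroneal and sural branches of the sciatic nerve are cut and the tibial branch is left, so that L3 to L6 ganglia mix injured and uninjured neurons, and the sources used here do not say which side was collected. Female mice were not studied.

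MMPs are zinc-dependent enzymes that cut collagens, laminins, proteoglycans and many cell-surface proteins, and most are made as inactive precursors. The membrane-type enzymes are activated inside the cell by proprotein convertases such as furin and work at the cell surface, where MMP14 together with TIMP2 activates the precursor of MMP2. TIMPs bind the active site of MMPs: TIMP2 and TIMP3 inhibit membrane-type enzymes, TIMP1 inhibits most of these poorly, and TIMP3 is held in the matrix and also inhibits ADAM17. In injured nerve and DRG these proteins are known for remodeling of the basal lamina, for release of cytokines from the cell surface and for a part in neuropathic pain.

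Reads on genes ranged from 41194238 to 73920332 per library, and replicates differed by a chi-square of 10.6 to 46.2 per gene, where counting error alone gives about 1. Libraries thus differed by more than counting error, and each library is another mouse, so mouse and library preparation cannot be told apart in this spread. By the labels the cell type is DRG, although spinal cord is entered as the tissue. Summed CPM (counts scaled to a common library size, in counts per 1e6 reads) of 8 sensory neuron markers were 8402 to 10590 per library, whereas those of 7 spinal cord markers were 11.5 to 37.5, of which Mobp (mean 9.21 CPM) and Aqp4 (10.6 CPM) made up most, while Olig2 had a mean of 0.036 and Mog of 0.20 CPM. Of the 4 spinal cord markers tested, 1 was higher in SNI-Saline than in Sham-Saline, where 12.0% of all genes differed by the test given below. In SNI-DMI 1 was lower than in SNI-Saline, where 2.93% of all genes differed. Library numbers in the sample names were 17 to 20 for Sham-DMI, 21 to 24 for SNI-DMI, 33 to 36 for SNI-Saline and 37 to 40 for Sham-Saline. Each group was thus a block of its own, so an effect of DMI or of injury and an effect of library order cannot be told apart. A lower level in bulk tissue can come from fewer cells of a type or from less RNA per cell, and these cannot be told apart here.

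Timp2 was by far the most abundant of the 10 transcripts in the DRG when levels were set per length. In Sham-Saline mice its level was 229 ± 2.33 CPM per kilobase of exon (SD, n = 4). Mmp15 followed at 31.3 ± 3.90, Timp3 at 17.4 ± 2.29 and Mmp24, an enzyme found mainly in the nervous system, at 11.3 ± 0.415 CPM per kilobase. Below these lay Mmp2, the secreted gelatinase, at 6.26 ± 1.27 and its activator Mmp14 at 5.08 ± 0.359 CPM per kilobase. Timp1 at 2.42 ± 0.742, Mmp17 at 2.31 ± 0.213, Mmp16 at 1.36 ± 0.115 and Timp4 at 0.246 ± 0.0564 CPM per kilobase were the lowest. This order of means was the same in all 4 groups. Most neighbors in the order did not overlap between mice. In Sham-Saline the exceptions were Mmp2 with Mmp14 and Timp1 with Mmp17, and in SNI-Saline the exception was Mmp14 with Timp1. In Sham-DMI the ranges overlapped for Timp3 with Mmp24, Mmp2 with Mmp14 and Timp1 with Mmp17, and in SNI-DMI for Mmp2 with Mmp14.

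The ratio of the 4 TIMPs to the 6 MMPs among the 10 genes varied little. Mmp25 is not part of it, although its group means of 12.1 to 15.5 CPM per kilobase lay above those of Mmp24 (10.3 to 11.3). Timp2 and Mmp15 were the largest terms of the sums, and Mmp15 made up 31.3 of a mean MMP sum of 57.6 CPM per kilobase for Sham-Saline mice. The ratio therefore says little about the other genes. Timp2 made up 89.2% to 95.4% of the summed per-length level of the 4 TIMPs in the 16 libraries. The summed TIMP level was 4.04 to 5.01 times that of the 6 MMPs, with means of 4.36 ± 0.404 for the Sham-Saline group, 4.62 ± 0.333 for SNI-Saline, 4.59 ± 0.182 for Sham-DMI and 4.45 ± 0.124 for SNI-DMI (SD, n = 4), so the group ranges overlapped. The Timp1 share of the TIMP sum was 0.970% ± 0.297 for Sham-Saline mice and 1.40% ± 0.396 for SNI-Saline mice, and with DMI it was 0.902% ± 0.183 for sham and 1.48% ± 0.109 for SNI mice.

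**Figure D1:**
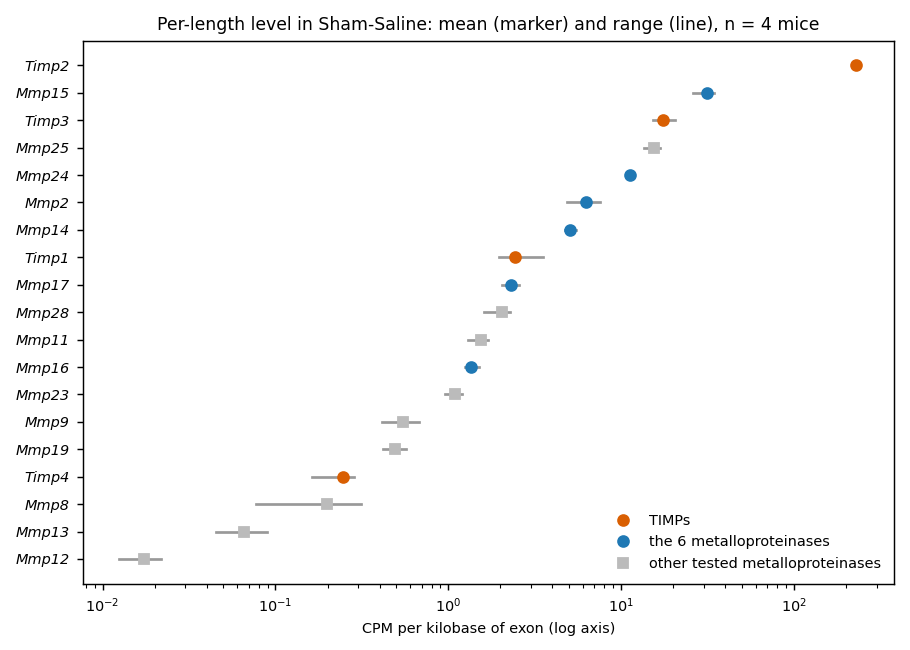
Level in CPM per kilobase of exon (log axis) of the 10 genes (circles, TIMPs in orange and MMPs in blue) and of the 9 other tested metalloproteinases (gray squares) in the 4 Sham-Saline mice, with the mean as the marker and the range as the line. Timp2 at 229 lies above Mmp15 at 31.3, the next in order, and among the 10 genes Timp4 at 0.246 is the lowest.

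Nerve injury in saline-treated mice was accompanied by a higher level of Timp1, and by no other change among the 10 genes that passed the test. In the comparison of SNI-Saline with Sham-Saline, 1 of the 10 genes had an adjusted p under 0.1 in edgeR's quasi-likelihood test, against 12.0% of all genes tested. The median log2 fold change of the 10 genes was 0.03, and that of all genes was -0.001.

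**Figure D2:**
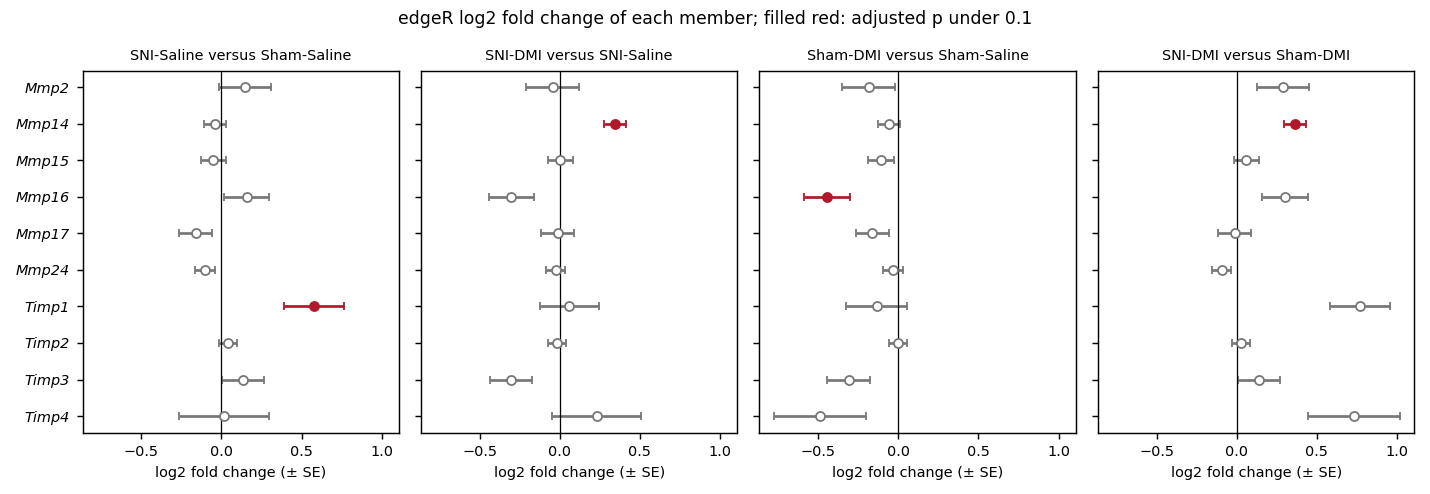
log2 fold change (horizontal axis, ± SE) of each of the 10 genes in the 4 pairwise comparisons of groups of 4 mice. Filled red points mark an adjusted p under 0.1, which are Timp1 with injury at 0.58, Mmp14 in SNI-DMI against SNI-Saline at 0.34 and against Sham-DMI at 0.36, and Mmp16 in Sham-DMI against Sham-Saline at -0.45.

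Timp1 (ENSMUSG00000001131) encodes a secreted inhibitor that also binds the tetraspanin CD63, and it is known to be induced in injured tissue. It lies at chrX:20870166-20874735 on the plus strand of GRCm38 and inside the synapsin gene Syn1, which runs on the opposite strand and shares no exon base with it. Its RefSeq upstream region of 250 bases (GRCm38.p6, chrX:20869916-20870165, plus strand) is shown because Timp1 was the only one of the 10 genes that passed the test with injury in saline-treated mice. Capitals mark the Sp1 box GGGCGG on either strand.
Timp1: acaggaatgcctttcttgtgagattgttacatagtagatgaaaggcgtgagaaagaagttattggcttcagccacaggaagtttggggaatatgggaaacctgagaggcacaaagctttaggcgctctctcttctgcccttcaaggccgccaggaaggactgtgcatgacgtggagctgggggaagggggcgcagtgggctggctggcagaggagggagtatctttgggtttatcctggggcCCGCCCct

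In Sham-Saline mice, replicates 1 to 4, Timp1 stood at 3.13, 1.83, 1.89 and 1.74 CPM. In SNI-Saline mice it stood at 2.70, 2.92, 4.24 and 2.90 CPM. In Sham-Saline 3 libraries lay below every SNI-Saline library, and replicate 1 lay within the SNI-Saline range, so the groups overlapped. The log2 fold change was 0.58 ± 0.19 (SE), a 1.49-fold higher level, with an adjusted p of 0.0741 in edgeR. An exact two-sided permutation test of the 4 against 4 values gave p = 0.114. The edgeR call ended when Sham-Saline replicate 2, 3 or 4 was left out (log2 fold changes of 0.51, 0.53 and 0.49), without SNI-Saline replicate 1, 2 or 3 (0.66, 0.63 and 0.41) and with trends on GC content and exon length removed (0.47, adjusted p = 0.198).

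Timp1 also stood higher in SNI-DMI than in Sham-DMI mice. Its CPM were 1.96, 1.76, 1.75 and 2.32 without injury and 3.29, 2.92, 3.35 and 3.74 with it. These groups did not overlap, and the log2 fold change was 0.77 ± 0.19 with an adjusted p of 0.125 in edgeR, which did not pass. DESeq2 on all 16 libraries passed it at 0.76 with an adjusted p of 0.0119, and edgeR passed it without the filter on low counts (0.77, adjusted p = 0.0417). It also passed without SNI-Saline replicate 3 (0.77), Sham-Saline replicate 1 (0.78), Sham-DMI replicate 1 (0.76) or SNI-DMI replicate 2 (0.83). Between SNI-DMI and SNI-Saline the Timp1 difference was 0.06 ± 0.18, and between Sham-DMI and Sham-Saline it was -0.13 ± 0.19, with adjusted p-values of 0.893 and 0.686 in edgeR.

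Most injured-neuron markers and some macrophage markers were higher with injury as well. Of 6 macrophage markers, 2 passed the test as higher in SNI-Saline than in Sham-Saline, where 12.0% of all genes passed. Their summed level was 55.4 to 64.9 CPM for Sham-Saline and 62.1 to 105.9 CPM for SNI-Saline mice, so the ranges overlapped. It was 44.7 to 57.5 CPM for Sham-DMI and 53.0 to 90.6 CPM for SNI-DMI mice. Of 5 injured-neuron markers, 4 passed as higher, with summed levels of 274 to 303 CPM without and 422 to 478 CPM with injury in the saline groups. With DMI their sums were 328.5 to 369 CPM in sham and 449 to 590 CPM in SNI mice. They passed as higher for 3 of the 5 with DMI in sham mice (23.4% of all genes called), and for 3 with injury in DMI-treated mice (0.402%). Of 5 satellite glia markers, 1 passed as higher and 0 as lower with injury in saline (2013 to 2234 CPM without and 2310 to 2717 CPM with it). None of 5 fibroblast markers passed in any of the 4 comparisons. The part of these cells in the Timp1 values was not tested. The host gene Syn1 did not pass in any comparison, and its log2 CPM correlated with that of Timp1 at r = -0.27 over the 16 libraries.

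DMI in nerve-injured mice was accompanied by a higher level of Mmp14. In SNI-DMI against SNI-Saline, 1 of the 10 genes had an adjusted p under 0.1, against 2.93% of all genes, and 2 of the 10 (Mmp14 and Timp3) showed no overlap between the groups, against 13.3% of all genes. The median log2 fold change was -0.02 for the 10 genes and -0.005 for all genes.

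Mmp14 (ENSMUSG00000000957) encodes a membrane-anchored collagenase at chr14:54431612-54445364 on the plus strand of GRCm38. Its upstream region (RefSeq, GRCm38.p6, chr14:54431348-54431597, plus strand) is shown because Mmp14 was the member with a call in both comparisons of the SNI-DMI group, and capitals again mark GGGCGG, here found 2 times in a row.
Mmp14: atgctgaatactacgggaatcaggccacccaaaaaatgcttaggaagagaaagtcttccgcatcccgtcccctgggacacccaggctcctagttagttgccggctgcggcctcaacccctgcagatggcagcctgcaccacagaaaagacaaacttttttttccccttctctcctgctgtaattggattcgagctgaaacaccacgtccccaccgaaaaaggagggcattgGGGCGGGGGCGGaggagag

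In SNI-Saline mice Mmp14 stood at 28.4, 30.1, 27.6 and 31.8 CPM. In SNI-DMI mice it stood at 42.1, 36.3, 35.1 and 36.04 CPM. Every SNI-DMI library lay above every SNI-Saline library. The log2 fold change was 0.34 ± 0.07 (SE), a 1.27-fold higher level, with an adjusted p of 0.0622 in edgeR and an exact two-sided permutation p of 0.0286, the smallest that the 70 arrangements of 4 against 4 allow. The edgeR call was lost without SNI-Saline replicate 1 or 3 (0.34 and 0.31), without SNI-DMI replicate 1, 2 or 3 (0.29, 0.35 and 0.39) and with the GC and length trends removed (0.30, adjusted p = 0.103).

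Mmp14 stood within a narrow range in the groups without both SNI and DMI. Its CPM were 28.2, 31.6, 32.6 and 28.7 in Sham-Saline and 31.3, 28.5, 29.1 and 27.5 in Sham-DMI, so the 12 libraries of the other groups lay below all 4 of SNI-DMI. SNI-DMI exceeded Sham-DMI by a log2 fold change of 0.36 ± 0.07, with an adjusted p of 0.0368 in edgeR. This call was lost without Sham-DMI replicate 2, 3 or 4 (0.36, 0.37 and 0.32), without SNI-DMI replicate 1 or 4 (0.31 and 0.36) and in a fit of the 8 libraries of the comparison alone (0.37, adjusted p = 0.179). Injury in saline-treated mice gave -0.04 ± 0.07 and DMI in sham mice -0.06 ± 0.07, with adjusted p-values of 0.796 and 0.617 in edgeR. In SNI-DMI against SNI-Saline, 2.93% of all genes passed. Of 5 satellite glia markers, 1 passed as higher there (summed levels of 2310 to 2717 CPM without and 2524 to 2895 CPM with DMI). Of 5 neutrophil markers, 2 passed as lower (9.49 to 29.9 CPM without and 2.86 to 7.35 CPM with DMI), beside the spinal cord marker given above. Their part in the Mmp14 values was not tested.

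**Figure D3:**
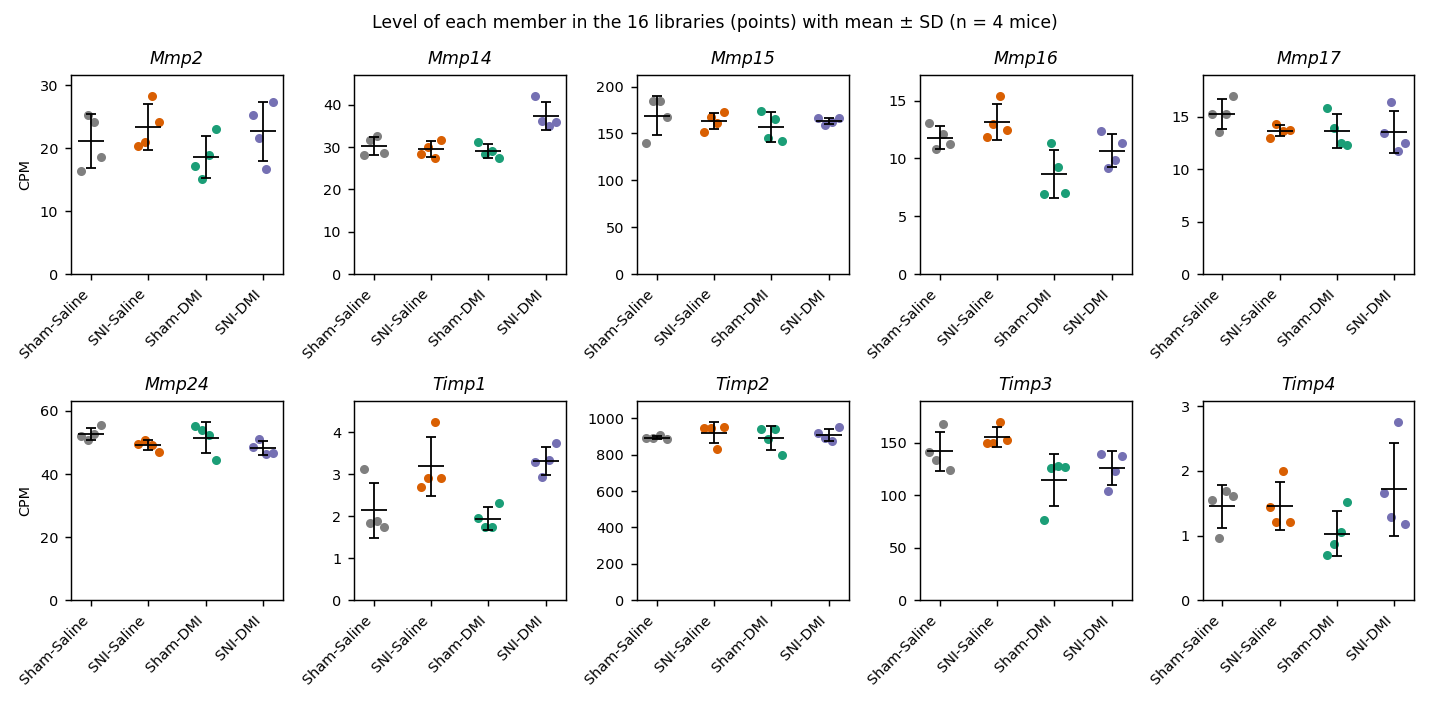
CPM (vertical axes, from 0) of the 10 genes in each of the 16 libraries (points), with the mean and SD of each group of 4 mice in black. The 4 SNI-DMI libraries sit above all others for Mmp14, from 35.1 to 42.1 CPM, and Timp3 has 1 low Sham-DMI library at 76.9 CPM.

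DMI in sham-operated mice was accompanied by a lower level of Mmp16. In Sham-DMI against Sham-Saline, 1 of the 10 genes had an adjusted p under 0.1, against 23.4% of all genes. No member was free of overlap between these groups, against 17.1% of all genes. The fitted log2 fold change lay below 0 for 10 of the 10 genes, with a median of -0.15, where the median of all genes was -0.02. That for Timp2, at -0.002, lay above 0 under 5 of the 9 other settings. Over all genes 2475 of 5010 calls were higher, and with the GC and length trends removed 3280 of 4028 calls were higher.

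Mmp16 (ENSMUSG00000028226), a membrane-type enzyme on the plus strand at chr4:17852893-18119145 of GRCm38, is known to cut proteoglycans and collagen at the cell surface. In Sham-Saline mice it stood at 13.0, 10.8, 12.2 and 11.2 CPM, and in Sham-DMI mice at 6.93, 11.4, 9.29 and 7.03 CPM. In Sham-DMI 3 libraries lay below every Sham-Saline library, and replicate 2 lay within that range. The log2 fold change was -0.45 ± 0.14 (SE), with an adjusted p of 0.0390 in edgeR and an exact permutation p of 0.0857. The edgeR call ended without Sham-Saline replicate 1 or 3 (-0.38 and -0.41), without Sham-DMI replicate 1 or 4 (-0.34 for both) and with the GC and length trends removed, where the value was -0.24 (adjusted p = 0.201). In the SNI groups the values were 11.8, 13.0, 15.4 and 12.5 CPM with saline and 12.4, 9.13, 9.85 and 11.3 CPM with DMI. That difference of -0.30 ± 0.14 had an adjusted p of 0.257 in edgeR.

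Timp3, the matrix-bound inhibitor, stood lower with DMI in both surgical groups without passing the test in either. Its CPM were 141, 134, 168 and 124 in Sham-Saline and 76.9, 126, 128 and 127 in Sham-DMI, where replicate 1 stood apart from the other 3. They were 150, 150, 170 and 153 in SNI-Saline and 139, 105, 123 and 137 in SNI-DMI, without overlap. The log2 fold changes with DMI were -0.31 ± 0.13 in sham mice (adjusted p = 0.118) and -0.30 ± 0.13 in SNI mice (adjusted p = 0.227) in edgeR. Without Sham-DMI replicate 1 the sham difference was -0.14, and the SNI difference of -0.30 passed with an adjusted p of 0.0665. The sham values also passed in DESeq2 on all 16 libraries (-0.30, adjusted p = 0.0899) and without a filter on low counts (-0.30, adjusted p = 0.0815), and the SNI values passed in a fit of their 8 libraries alone (-0.31, adjusted p = 0.0671). Timp3 lies inside Syn3 on the opposite strand, and 1733 bases, or 21.3% of its exon length, are also exon of Syn3. Whether strand was used in counting is not given in the sources used here, so reads of these bases cannot be assigned with certainty. Syn3 stood at 8.39 ± 0.471 CPM in Sham-Saline against 142 for Timp3, and the log2 CPM of both genes correlated at r = 0.54 over the 16 libraries.

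Fibroblast, Schwann cell and endothelial markers were followed beside these values. Summed levels of 6 Schwann cell markers were 4590 to 6285 CPM for Sham-Saline and 5816 to 6882 CPM for SNI-Saline mice. With DMI these sums were 4229 to 6970 CPM in sham and 4926 to 6052 CPM in SNI mice. Among the 6, 1 passed as lower with DMI in sham mice (23.4% of all genes called) and 0 passed with DMI in SNI mice (2.93%). The summed level of 5 fibroblast markers was 452 to 699 CPM for Sham-Saline mice, 515 to 757 for SNI-Saline, 423 to 593 for Sham-DMI and 467 to 654 for SNI-DMI. Of 4 endothelial markers, 1 passed as lower in Sham-DMI than in Sham-Saline, where 23.4% of all genes passed. Their part in the Mmp16 and Timp3 values was not tested.

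In DMI-treated mice, injury was accompanied by a higher Mmp14 level as given above, and 1 of the 10 genes passed the test in SNI-DMI against Sham-DMI, against 0.402% of all genes. Mmp14 and Timp1 did not overlap between these groups, against 5.04% of all genes without overlap. The median log2 fold change was 0.21 for the 10 genes and 0.001 for all genes. By the study's rule for differentially expressed genes (an unadjusted p under 0.05, with a log2 fold change of 0.32 or more in size), 3 of the 10 genes qualified (Mmp14, Timp1 and Timp4), against 5.41% of all genes. That rule picked Timp1 with injury in saline (7.15% of all genes), Mmp14 with DMI in SNI mice (5.73%) and Mmp16 with DMI in sham mice (11.5%). All 4 pairwise comparisons share groups with each other, so their values are not independent.

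Whether DMI acted differently in SNI and sham mice was asked with the difference between both DMI effects. None of the 10 genes passed an adjusted p of 0.1 in edgeR, and none of the 21371 genes did (0.0%), although 1692 genes (7.92%) had an unadjusted p under 0.05 and DESeq2 called 16. For Mmp14 the difference was 0.40 ± 0.10 on the log2 scale, with an unadjusted p of 6.9e-04 and an adjusted p of 0.619 in edgeR, and Mmp14 was the only member to meet the rule on unadjusted p and fold change, against 3.45% of all genes. For Mmp16 it was 0.14 ± 0.20, for Timp1 0.19 ± 0.26 and for Timp3 0.006 ± 0.19. Timp4 had the widest error, at 0.72 ± 0.40.

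The remaining 6 genes passed in none of the comparisons. Timp2, which inhibits MMP2 and takes part in its activation, stood between 799 and 952 CPM in all 16 libraries, and its largest difference was 0.04 ± 0.06 with injury. Mmp15 ranged from 140 to 185 CPM, with differences from -0.11 to 0.06. Its group means were 169 CPM for Sham-Saline and 163 for SNI-Saline mice, and 157 for Sham-DMI and 163 for SNI-DMI mice.

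Mmp24 stood at 52.1, 50.7, 52.8 and 55.4 CPM in Sham-Saline and at 49.6, 50.7, 49.4 and 47.0 CPM in SNI-Saline. The groups touched without overlapping, as they did for 15.4% of all genes, and the log2 fold change of -0.10 ± 0.06 had an adjusted p of 0.333 in edgeR. Its exons share 637 bases, or 13.6% of their length, with BC029722 on the opposite strand.

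Mmp2 varied more between mice than between groups. Sham-Saline mice held 16.4 to 25.3 CPM of Mmp2, SNI-Saline mice 20.3 to 28.3, Sham-DMI mice 15.2 to 23.1 and SNI-DMI mice 16.7 to 27.3. The largest difference was 0.29 ± 0.16, in SNI-DMI against Sham-DMI, with an adjusted p of 0.496 in edgeR. Mmp17, which is tied to the membrane by a lipid anchor, ran from 13.5 to 16.98 CPM in Sham-Saline and from 11.8 to 16.4 in the other groups.

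Timp4, the lowest of the 10 genes, stood at 1.55, 0.960, 1.68 and 1.62 CPM in Sham-Saline and 1.45, 1.21, 1.99 and 1.21 in SNI-Saline. With DMI it stood at 0.700, 0.860, 1.05 and 1.51 in Sham and 1.66, 1.29, 2.75 and 1.18 in SNI mice. All groups overlapped, and the largest difference, 0.73 ± 0.29 in SNI-DMI against Sham-DMI, had an adjusted p of 0.316 in edgeR. Timp4 lies inside Syn2 on the opposite strand and shares 90 exon bases with it, 1.53% of its exon length.

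Of the 17 other MMPs of the family, 9 had enough reads to be tested, and macrophage elastase Mmp12 rose with injury in both treatments. Mmp12 counts were 9, 7, 10 and 6 in the Sham-Saline libraries and 20, 27, 32 and 29 in the SNI-Saline libraries. With DMI they were 5, 11, 2 and 3 in sham and 44, 23, 23 and 14 in SNI mice. The log2 fold changes with injury were 1.81 ± 0.41 in saline (adjusted p = 0.0211) and 2.25 ± 0.43 in DMI (adjusted p = 0.0371) in edgeR. The DMI call was lost without Sham-DMI replicate 3 (2.13) or SNI-DMI replicate 1 (1.83) and in the fit of 8 libraries (adjusted p = 0.215). Of the 6 macrophage markers, 2 passed as higher with injury in saline (12.0% of all genes called) and none with injury in DMI (0.402%). Their summed ranges overlapped between sham and SNI mice in both treatments. The part of macrophages in the Mmp12 values was not tested.

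Of the other tested family genes, 2 passed with injury in saline, where 12.0% of all genes did. Mmp19 had a mean of 1.74 CPM without and 2.57 CPM with injury (0.56 ± 0.18, adjusted p = 0.0736 in edgeR), and the call was lost with the GC and length trends removed (0.53, adjusted p = 0.122) and in 6 of the 16 fits without 1 library. These were the fits without Sham-Saline replicate 1 (0.52), 3 (0.65) or 4 (0.50) and without SNI-Saline replicate 2 (0.57), 3 (0.42) or 4 (0.59). On the opposite strand, Mmp19 shares 789 exon bases, or 22.3% of its exon length, with Tmem198b and 212 (6.0%) with Gm47093. Mmp25, abundant in these ganglia, had a mean of 82.3 CPM without and 67.3 CPM with injury (-0.29 ± 0.09, adjusted p = 0.0594), without overlap. Its call ended in fits without Sham-Saline replicate 1 (-0.28), 3 (-0.25) or 4 (-0.24), and likewise without SNI-Saline replicate 1 (-0.23) or 2 (-0.29).

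Neutrophil collagenase Mmp8 fell with DMI in sham mice, from counts of 23, 54, 12 and 38 to 1, 16, 4 and 9 (log2 fold change -1.94 ± 0.53, adjusted p = 0.0188 in edgeR). Of 5 neutrophil markers, 3 passed as lower in this comparison, against 23.4% of all genes called. Their summed levels were 6.20 to 23.5 CPM in Sham-Saline against 2.12 to 9.91 CPM in Sham-DMI. The part of neutrophils in the Mmp8 value was not tested. Mmp9, Mmp11, Mmp13, Mmp23 and Mmp28 passed in none of the comparisons. Mmp1b and Mmp20 had no read in any library, and the 6 others had 2 to 19 reads over all 16.

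Among 20 genes that activate, anchor or clear MMPs and TIMPs, 19 were tested and the TIMP1-binding tetraspanin Cd63 had the smallest p with injury. It stood at 48.5, 54.0, 48.7 and 50.6 CPM in Sham-Saline and at 67.6, 67.8, 68.1 and 65.9 CPM in SNI-Saline, without overlap. The log2 fold change was 0.42 ± 0.05, with an adjusted p of 6.3e-04 in edgeR, and the call held in all 16 fits without 1 library. Cd63 was also higher with DMI in sham mice (0.26 ± 0.05, adjusted p = 0.00461) and with injury in DMI-treated mice (0.32 ± 0.05, adjusted p = 0.0163), the last lost without SNI-DMI replicate 4 (0.27) and in the fit of 8 libraries (0.32, adjusted p = 0.166).

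With injury in saline, 4 of the 19 genes were higher and 2 lower, where 12.0% of all genes passed, and the median of the 19 was 0.12. The protease inhibitor Serpine2 was among the higher genes (0.32 ± 0.07, adjusted p = 0.0249 in edgeR, kept in all 16 such fits). Cd44, a surface receptor that docks MMPs, was lower (-0.27 ± 0.08, adjusted p = 0.0473). Its call ended with the GC and length trends removed (-0.21, adjusted p = 0.132), without Sham-Saline replicate 1 (-0.18) or 4 (-0.24), and likewise without SNI-Saline replicate 1 (-0.22) or 2 (-0.24). Furin, which activates membrane-type MMPs, was lower as well (-0.31 ± 0.09, adjusted p = 0.0496), a call that ended without Sham-Saline replicate 3 (-0.25) or 4 (-0.29), and likewise without SNI-Saline replicate 1 (-0.28) or 2 (-0.29). Reck, a membrane-anchored inhibitor of MMP14, MMP2 and MMP9, passed in none of the comparisons, with differences from -0.13 to 0.03.

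With DMI in SNI mice, 1 of the 19 genes (Adam15) was higher and none lower, against 2.93% of all genes called. In sham mice 3 were higher and 6 lower, against 23.4% of all genes called. Bsg, which induces MMPs in neighboring cells, was among the higher genes in sham mice (0.21 ± 0.05, adjusted p = 0.00822 in edgeR, kept in all 16 fits without 1 library). It also passed as higher with injury in saline, with means of 393 CPM in Sham-Saline and 436 CPM in SNI-Saline. Furin was among the lower genes in sham mice, with means of 54.1 CPM for saline and 45.9 CPM for DMI. Neither this Furin call nor the Bsg call with injury was followed under the other settings. Thbs1, a matrix protein that binds MMPs and takes part in their clearance, was lower in sham mice (-0.96 ± 0.26, adjusted p = 0.0183 in edgeR), as was the sheddase Adam10 (-0.39 ± 0.10, adjusted p = 0.0148), and both calls held in all 16 fits without 1 library. Thbs1 did not pass in SNI mice, where its mean was higher with DMI (12.3 CPM) than with saline (9.375 CPM). Lrp1, the receptor that takes up MMP and TIMP complexes, was lower with DMI in sham mice as well (-0.26 ± 0.10, adjusted p = 0.0853 in edgeR). Its call ended in the fit of 8 libraries (-0.24, adjusted p = 0.159), with upper-quartile scaling (-0.25, adjusted p = 0.104) and in 10 of the 16 fits without 1 library: those without Sham-DMI replicate 1 (-0.17), 2 (-0.25) or 4 (-0.26), Sham-Saline replicate 3 (-0.14) or 4 (-0.27), and also SNI-Saline replicate 1 or 2 and SNI-DMI replicate 1, 3 or 4 (-0.24 for each). With the GC and length trends removed it was -0.14 (adjusted p = 0.284).

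With injury in DMI-treated mice, 2 of the 19 were higher (Cd63 and Thbs2) and none lower, against 0.402% of all genes called. Thbs2, a relative of Thbs1, stood at a mean of 8.05 CPM in Sham-DMI and 12.6 CPM in SNI-DMI (0.65 ± 0.14, adjusted p = 0.0831 in edgeR). That call ended in the fit of 8 libraries (0.65, adjusted p = 0.204), with upper-quartile scaling (0.64, adjusted p = 0.101) and in 7 of the 16 fits, without Sham-DMI replicate 2 (0.65) or 3 (0.69), SNI-DMI replicate 1 (0.65) or 4 (0.50), and likewise SNI-Saline replicate 4 and Sham-Saline replicates 2 and 4 (0.65 for each). Adam15, a membrane-bound relative of the MMPs, had differences of 0.18 ± 0.05 with injury in saline, 0.21 ± 0.05 with DMI in SNI mice and 0.25 ± 0.05 with DMI in sham mice, and the last held in all 16 such fits. The first ended without Sham-Saline replicate 1 (0.18) or 3 (0.20) and without SNI-Saline replicate 1 (0.19), 2 (0.18) or 4 (0.16). The second ended without Sham-Saline replicate 2 or 4 (0.21 for both), all SNI-Saline replicates but 2 (0.16 to 0.24) and all SNI-DMI replicates but 4 (0.21 to 0.24). It also ended with the replicate number as a block (0.22, adjusted p = 0.107) and with the GC and length trends removed (0.16, adjusted p = 0.186). Adam15 shares 1263 exon bases, or 20.6% of its exon length, with an antisense gene.

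Of 20 matrix substrates, 18 passed in no comparison, and 2 passed with DMI in sham mice, where 23.4% of all genes did. The median log2 fold change of the 20 genes was 0.14 with injury in saline and -0.12 with DMI in SNI mice. It was -0.22 with DMI in sham mice and 0.22 with injury in DMI-treated mice. The medians of all genes lay between -0.02 and 0.001. The proteoglycans Hspg2 (-0.41 ± 0.15, adjusted p = 0.0659) and Vcan (-0.43 ± 0.14, adjusted p = 0.0408 in edgeR) were lower with DMI in sham mice. The Hspg2 call ended without Sham-Saline replicate 2 (-0.40) or 3 (-0.28), and likewise without Sham-DMI replicate 1 (-0.27) or 2 (-0.38). That of Vcan ended without Sham-Saline replicate 3 (-0.30) and without Sham-DMI replicate 1 (-0.34) or 2 (-0.35). Both calls ended with the GC and length trends removed (-0.28 for Hspg2 and -0.20 for Vcan). Both also ended in the edgeR fit of 8 libraries (Hspg2 -0.39, adjusted p = 0.111, and Vcan -0.42, adjusted p = 0.125).

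The genes whose pattern over the 16 libraries was most like each member were sought among 13723 protein-coding genes by the correlation of log2 CPM. These libraries share their groups and scaling, so the values are descriptions. Timp3 was most like Itih5 (r = 0.97), Reln (0.95) and Lama2 (0.95), and Mmp16 most like Fam129a (0.96), Chl1 and Abca1 (0.92 for both). Mmp14 was most like Trim8 (0.84), Cdc42ep5 and Inf2 (0.83 for both), and Timp1 most like Car3 (0.84), Gpr151 (0.83) and Lamb3 (0.82). With group means removed the Timp1 values were 0.50, 0.43 and 0.40, those of Mmp14 were 0.80 for Trim8, 0.53 for Cdc42ep5 and 0.69 for Inf2, and those of Timp3 were 0.92 to 0.95.

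Leading genes for the rest were Ltbp1 for Mmp2 (r = 0.91), Git1 for Mmp15 (0.91), Dapk1 for Mmp17 (0.91), Rap1gap2 for Mmp24 (0.92), Zyx for Timp2 (0.84) and Slc2a12 for Timp4 (0.89). Between the 10 genes themselves, Mmp16 and Timp3 had the highest correlation (0.80), followed by Mmp17 and Mmp24 (0.74). Mmp24 and Timp1 had the lowest, at -0.60. With group means removed the order was different, with Mmp17 and Mmp24 highest (0.73), Mmp16 and Timp3 at 0.63, Mmp24 and Timp1 at -0.38 and Timp2 and Timp4 lowest (-0.67).

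Upstream regions of 250 bases could be matched for 7 of the 10 genes, all but Mmp2, Mmp16 and Mmp17. On either strand, the Sp1 box GGGCGG was present in 6 of the 7 (all but Timp4) and in 32.7% of 32851 RefSeq promoters. CCAAT was present in Mmp14, Timp1 and Timp2 and in 33.8% of all, and GGAAG, an Ets core, in 5 of the 7 and in 64.1% of all. The AP-1 sequence TGANTCA (6.75% of all), TATAAA (12.4%) and the STAT sequence TTCNNNGAA (7.02%) had no match in these windows. The windows shown for Timp1 and Mmp14 thus both held GGGCGG within 19 bases of the start, and both held CCAAT, at 190 bases for Timp1 and at 69 and 23 bases for Mmp14.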

How the data were processed

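Stranded mRNA libraries were sequenced in pairs of reads from 16 mice, 4 per group. The authors aligned reads to mm10 (HISAT2, HTSeq and DESeq2 are named in the submitters' processing notes) and deposited whole-number counts per Ensembl gene, without normalization. The annotation release and the strand setting are not given in the sources used here. The 5 closing lines of unassigned reads per file were left out of the counts (reads on genes were 79.56% to 81.17% of the total, no feature 7.1% to 9.44%).

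Symbols, coordinates and exon lengths came from GENCODE M21 on GRCm38, which held 52489 of the 52636 genes. In edgeR 4.0.16 (R 4.3.3), genes passing filterByExpr were scaled by TMM and fitted with glmQLFit, with 1 coefficient per group over all 16 libraries. Contrasts were tested with glmQLFTest, and p-values were adjusted over all 21371 genes (Benjamini-Hochberg, threshold 0.1). The pairwise contrasts and the difference between both DMI effects were tested. Log2 CPM used a prior count of 2. For single values of 4 against 4 mice, two-sided exact permutation tests were used. On data simulated for SNI-Saline against Sham-Saline (21070 genes, 199 changed by a log2 fold change of 0.75), 66.8% of changed genes were called, 89% of those with a mean of at least 1 CPM, and 7.6% of 144 calls were false.

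The alternatives were DESeq2 1.42.0, the 8 libraries of a contrast, upper-quartile scaling, DESeq2 size factors, no filter, at least 10 counts in every library, the replicate number as a block, trends on GC content and exon length removed (mgcv 1.9.3), both of these together, the study's nominal rule, and each library left out in turn. The members, gene lists and tests were chosen with earlier results of these data known. Named beside the members were the host genes, the tested MMPs, and of the other lists the called genes with the 3 smallest p per direction, plus Reck, Furin and Lrp1. Of these, 1 gene is not reported here. Likeness was sought among protein-coding genes with a mean of at least 1 CPM. Tables were written in python 3.11.15 (scipy 1.17.1, pandas 2.3.3, numpy 2.4.6) and plots in matplotlib 3.10.9.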

Additional observations from a re-analysis of the deposited data

Results flagged for a closer look

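In 6 of 40 groups of 4 mice (10 genes in 4 groups), 1 library lay farther from the other 3 than Dixon's 95% limit allows, where chance alone gives about 1 in 20, or 2 of 40. Timp1 was high in Sham-Saline replicate 1 (3.13 CPM) and in SNI-Saline replicate 3 (4.24 CPM). Timp2 was high in Sham-Saline replicate 3 (907 CPM, in a group with a narrow range) and low in SNI-Saline replicate 3 (833 CPM). Timp3 was low in Sham-DMI replicate 1 (76.9 CPM). Timp4 was low in Sham-Saline replicate 2 (0.960 CPM).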

How the results depend on the processing

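The counts of the 10 genes called by edgeR were 1 in each pairwise comparison and 0 for the difference between the DMI effects. With injury in saline the count was 0 with GC and length trends removed, with or without the block. In SNI-DMI against SNI-Saline it was 2 in the fit of 8 libraries and 0 with trends removed, with or without the block. In Sham-DMI against Sham-Saline it was 2 in DESeq2 and without a filter, and 0 with trends removed, with or without the block. In SNI-DMI against Sham-DMI it was 2 in DESeq2 and without a filter, 0 in the fit of 8 libraries and 3 by the nominal rule, which gave 1 for the difference between the DMI effects. With 1 library left out the counts ran from 0 to 1 for injury in saline and for Sham-DMI against Sham-Saline, and from 0 to 2 for SNI-DMI against SNI-Saline and against Sham-DMI. The causes were not tested.

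Same-numbered libraries of compared groups deviated together with correlations of -0.081 to 0.184. Differently numbered libraries were not compared in this way, so these values cannot decide whether the replicate numbers pair the samples. The replicate block alone left the count of the 10 genes called at 1 in each pairwise comparison and at 0 for the difference, and ended the Adam15 call in SNI-DMI against SNI-Saline (0.22, adjusted p = 0.107). Over all genes the block gave 172 calls in SNI-DMI against SNI-Saline, where 626 were called without it.

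Calls over all genes moved by over 1.5 times under further settings. They were 841 in place of 2571 for injury in saline with trends removed, and 497 with the block as well. For SNI-DMI against SNI-Saline they were 6 with trends removed, 0 with the block as well, 1859 in DESeq2 and 1812 in the fit of 8 libraries. For SNI-DMI against Sham-DMI, where 80 of 86 calls were higher, they were 225 with trends removed (108 higher), 502 in DESeq2, 310 without a filter and 9 in the fit of 8 libraries. The difference between the DMI effects gave 16 calls in DESeq2 and 1 with the block and trends removed. Leaving out 1 library gave 682 to 3286 calls for injury in saline, 3286 to 6094 for Sham-DMI against Sham-Saline (where 5010 were called, and the lowest was without Sham-Saline replicate 3), 0 to 1842 for SNI-DMI against SNI-Saline and 17 to 850 for SNI-DMI against Sham-DMI. In SNI-DMI against SNI-Saline the count was 0 in 5 of these fits, without SNI-Saline replicate 1 or 3 and without SNI-DMI replicate 1, 2 or 3. The fit without SNI-DMI replicate 4 gave the 17, and that without Sham-DMI replicate 1 gave 1842 and 850.

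No value that passed the test changed direction. Of the values of the 10 genes, 356 kept direction and call under the settings other than leaving out a library, and 16 changed sign. Mmp15 in SNI-DMI against SNI-Saline was -0.0095 with upper-quartile scaling and -0.056 with trends removed, with or without the block, and in SNI-DMI against Sham-DMI it was -0.033 with trends removed and -0.034 with the block as well. Timp1 in SNI-DMI against SNI-Saline was -0.0074 and -0.0054 under these same 2 settings. Timp2 was -0.016 under both with injury in saline and -0.058 under both in SNI-DMI against Sham-DMI. Timp2 in Sham-DMI against Sham-Saline was 0.011 in DESeq2, 0.015 in the fit of 8 libraries, 0.0042 with upper-quartile scaling, 0.0098 with DESeq2 size factors and 0.0051 without a filter.

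With 1 library left out, 621 values kept direction and call and 42 changed sign. For injury in saline the ranges were -0.075 to 0.011 for Mmp14, -0.121 to 0.0054 for Mmp15 and -0.166 to 0.106 for Timp4. For SNI-DMI against SNI-Saline they were -0.146 to 0.094 for Mmp2, -0.018 to 0.031 for Mmp15, -0.123 to 0.064 for Mmp17, -0.06 to 0.0077 for Mmp24, -0.0009 to 0.221 for Timp1, -0.069 to 0.017 for Timp2 and -0.077 to 0.407 for Timp4. For Sham-DMI against Sham-Saline they were -0.054 to 0.049 for Mmp24, -0.222 to 0.117 for Timp1 and -0.012 to 0.065 for Timp2. For SNI-DMI against Sham-DMI they were -0.0007 to 0.099 for Mmp15, -0.116 to 0.059 for Mmp17, -0.037 to 0.064 for Timp2 and -0.025 to 0.218 for Timp3. For the difference between the DMI effects Timp1 ran from -0.043 to 0.357. Reck ran from -0.052 to 0.09 with injury in saline and from -0.087 to 0.102 in SNI-DMI against Sham-DMI.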
